A study of Homo sapiens with 64 samples.

Results

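The replication-dependent histone genes are the clustered genes that supply the core histones H2A, H2B, H3 and H4 and the linker histone H1 for packing newly made DNA. All genes whose symbol starts with HIST1H, HIST2H, HIST3H or HIST4H were taken, which gave 73 of the 26364 genes listed. They comprised 6 H1, 18 H2A, 20 H2B, 14 H3 and 15 H4 genes, with 56 in the HIST1 cluster on chromosome 6, 13 in HIST2 and 3 in HIST3 on chromosome 1, and 1 in HIST4 on chromosome 12. Membership followed the symbol alone and used no measured value, but the members were chosen with earlier results of these data known.

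Most messages of these genes are made while DNA is copied and end at a conserved stem-loop in place of a poly(A) tail. The stem-loop is bound by SLBP and the cleavage is guided by the U7 particle. Some of the genes also make a longer, polyadenylated message when transcription runs past the stem-loop to a poly(A) signal, and this form is known from resting and differentiated cells. A library prepared by poly(A) selection therefore samples the polyadenylated forms and whatever stem-loop message was carried along.

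Messenger RNA was measured in NCI-H295R, a steroid-producing line from a human carcinoma of the adrenal cortex, after knockdown of NNT, a mitochondrial enzyme that makes NADPH. One set of cells carried an shRNA, aimed at NNT in 4 libraries and scrambled in 3. The other set received an siRNA, with 3 libraries for each of siRNA-2 and siRNA-3, both aimed at NNT, and 3 for a scrambled sequence. Harvest was 72 h after transfection for siRNA, and no time is given for shRNA. Every library came from the same line, and the labels speak of triplicates although the NNT shRNA group has 4 libraries. Nothing says that libraries of a group were separate cultures, and whether the shRNA cells were a pool or a clone is not given in the sources used here. Libraries are named by the codes in their titles, such as 30-11, and what a code stands for is not given in the sources used here.

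Levels are CPM, a gene's share of the library's gene counts after TMM scaling of the totals, and totals ran from 20148231 to 43992833 gene counts per library. NNT itself was at 28.7 to 34.6 CPM under the shRNA against 317 to 415 in its controls, which is -3.54 ± 0.32 as a log2 fold change (SE; edgeR adjusted p = 2.36e-05). Under siRNA-3 it was at 31.8 to 47.8 CPM against 296 to 362, or -3.13 ± 0.35 on that scale (adjusted p = 0.000172). Under siRNA-2 it was at 49.9, 187 and 233 CPM, below every control, but the log2 fold change of -1.11 ± 0.32 did not pass the threshold of 0.05 (adjusted p = 0.0777). All 9 adrenocortical markers were present and their summed level was 1207 to 2171 CPM, with NR5A1 at 344 to 561 CPM. Among markers of other cells, those of chromaffin cells were mixed, with PNMT at 0 in all 16 libraries and CHGA at 0.482 to 2.86 CPM. PTPRC reached at most 0.0307 CPM, while COL1A1 was at 7.67 to 21.3 CPM.

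The stem-loop was searched in the GENCODE 29 models (GRCh38) of the 73 genes. It was found downstream of the stop codon in the models of 33 genes, 22 to 67 bases after the stop codon where a coding end is annotated. The models of the other 40 genes hold no match to the pattern searched. Of these, 34 were classed as of coding length only. Among the 34, the models of HIST1H4C (435 bases) and HIST1H2BA (516 bases) are longer than those of HIST1H4A (312) and HIST1H2BB (381). The examples below are shown because they belong to the genes with the highest levels or with a called difference, and capitals mark the 16 bases of the stem-loop.

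HIST2H2BE: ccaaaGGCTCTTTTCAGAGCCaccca
HIST1H2AC: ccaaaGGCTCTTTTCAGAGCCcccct
HIST1H2BD: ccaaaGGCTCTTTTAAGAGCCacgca
HIST1H2AG: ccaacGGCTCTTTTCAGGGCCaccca
HIST3H2A: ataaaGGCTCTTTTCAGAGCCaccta
HIST1H3H: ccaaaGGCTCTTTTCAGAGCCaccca
HIST1H4H: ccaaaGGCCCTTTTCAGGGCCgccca
HIST1H4I: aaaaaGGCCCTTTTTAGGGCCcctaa

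On GRCh38 they lie at chr1:149886183-149886208 (HIST2H2BE, minus strand), chr6:26124664-26124689 (HIST1H2AC, plus), chr6:26158582-26158607 (HIST1H2BD, plus) and chr6:27133510-27133535 (HIST1H2AG, plus). The others lie at chr1:228457364-228457389 (HIST3H2A, minus), chr6:27810511-27810536 (HIST1H3H, plus), chr6:26285126-26285151 (HIST1H4H, minus) and chr6:27139649-27139674 (HIST1H4I, plus), all in the 3′ untranslated region. The stem was written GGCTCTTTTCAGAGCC in 17 genes of types H2A, H2B and H3. Both forms found in H4 genes, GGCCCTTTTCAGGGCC in 5 and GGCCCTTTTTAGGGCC in 3, occurred in no other type. The models of 24 genes run at least 100 bases past the stem-loop. For HIST2H2BE this extension is 1729 bases long, for HIST1H2AC 1128, for HIST1H2AG 1761, for HIST1H4H 1655 and for HIST3H2A 390.

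A few genes made up most of the signal. Summed over the 16 libraries the 73 genes held 180783 counts, or 0.0236 to 0.0438% of the gene counts of a library. HIST2H2BE, an H2B gene, gave 34.8% of these counts, HIST1H2BK, also H2B, 25.2%, and HIST1H1C, a somatic linker histone gene, 21.8%. The 7 genes listed as known to make polyadenylated messages (HIST1H1C, HIST1H2AC, HIST1H2BC, HIST1H2BD, HIST1H2BJ, HIST1H2BK and HIST2H2BE) gave 87.4% together, between 84.2 and 89.8% in each library. The next gene, HIST3H2A, which encodes an H2A and is not on that list, gave 2.73%. The list was chosen with earlier results of these data known and holds HIST2H2BE, HIST1H2BK and HIST1H1C, so its share is no independent result. Nor does it follow the poly(A) signal in the gene models. Those of HIST1H2AG and HIST1H3H, off the list, have the signal near their end, while that of HIST1H2BK, of coding length only, has none.

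By type, H2B genes gave 67.2% of the counts, H1 22.0%, H2A 7.17%, H3 2.48% and H4 1.144%. The summed H2B level was 158 to 293 CPM and the summed H1 level 54.3 to 110.1 CPM. H2A genes came to 17.6 to 34.2 CPM, H3 genes to 5.17 to 10.7 CPM and H4 genes to 2.21 to 5.60 CPM. A nucleosome holds the core histones in equal number, and the summed levels were far from equal, with H2B many times above H4 in every library. The H2A, H3 and H4 sums may be too low. They lack the near-identical HIST2 genes described below, which are of these types and whose level cannot be read. By how much this changes the shares of the types was not tested.

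**Figure D1:**
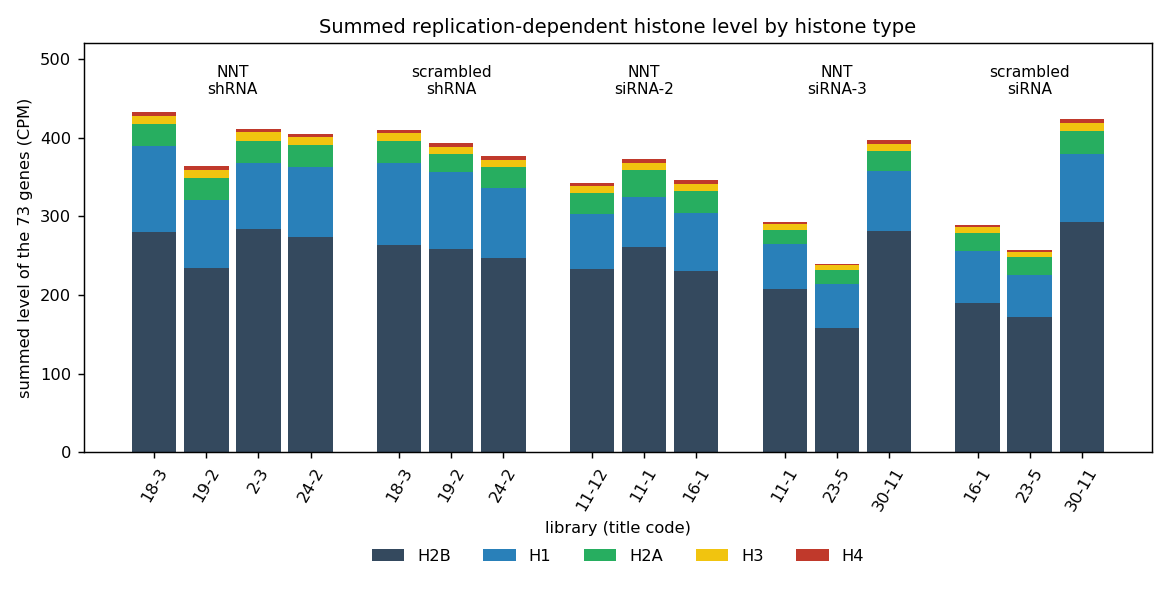
Summed level of the 73 genes in each of the 16 libraries (CPM, vertical axis from 0), stacked by histone type and ordered by group, with the title code under each bar. H2B and H1 fill most of every bar, and the lowest and highest siRNA libraries share codes: 23-5 at 239.8 and 257 CPM, 30-11 at 397 and 423 CPM.

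Of the 73 genes, 36 passed the filter on low counts (3 H1, 9 H2A, 15 H2B, 6 H3 and 3 H4), 25 had some counts without passing it, and 12 had none in any library. No gene that failed the filter had more than 113 counts in all, and a total of 0 allows up to 0.006 CPM. The 12 genes without counts include the testis-expressed genes HIST1H2AA, HIST1H2BA and HIST3H3, as well as HIST1H4G, HIST1H4L and the pseudogene HIST1H2APS1. The other 6 form 3 near-identical pairs of the HIST2 cluster: HIST2H2AA3 with HIST2H2AA4, HIST2H3A with HIST2H3C, and HIST2H4A with HIST2H4B. Between 97.1 and 100.0% of the 50-base stretches in their models also occur in another histone gene, and reads with several alignments, 7.47 to 8.17% of a library, were in no gene's count. Their level cannot be read from these counts. Among the tested genes the shared part was also large for HIST1H2AM (86.3%), the pseudogene HIST2H2BA (63.5%) and HIST1H2AI (62.3%), whose values are uncertain for the same reason, and it was 22.6% for HIST1H2BK.

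Per length of the gene model, the mean over 16 libraries was highest for HIST1H2BK, at 238 CPM per kb, followed by HIST1H1C at 121 and HIST2H2BE at 57.0. The models of HIST1H2BK (381 bases) and HIST1H1C (642 bases) are of coding length only, and the annotation behind the counts is not stated, so the order of these 3 genes per length is uncertain. HIST3H2A came to 11.2, HIST1H2AC to 4.08, HIST1H3H to 2.73 and HIST1H4H to 1.13 CPM per kb.

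Many H2A and H2B genes start back to back on opposite strands and share the stretch between them. In 13 pairs of the 73 genes the GENCODE starts lie at most 1000 bases apart, 124 to 357 bases, and the partners often differed widely. HIST2H2BE and HIST2H2AC start 323 bases apart and held 62916 and 541 counts over all libraries, or 57.0 against 2.77 CPM per kb. HIST1H2BK and HIST1H2AH start 331 bases apart and held 45565 and 35 counts. In the HIST3 cluster the order was turned, with 4936 counts for the H2A gene HIST3H2A and 313 for its H2B partner HIST3H2BB, or 11.2 against 0.272 CPM per kb. HIST1H2BC and HIST1H2AC (957 and 3400 counts, 2.27 and 4.08 CPM per kb) and HIST1H2BJ and HIST1H2AG (2360 and 1526 counts, 4.90 and 1.37 CPM per kb) were closer. Of HIST2H2AC, 30.5% of the 50-base stretches also occur in another histone gene, against 8.11% for HIST2H2BE.

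**Figure D2:**
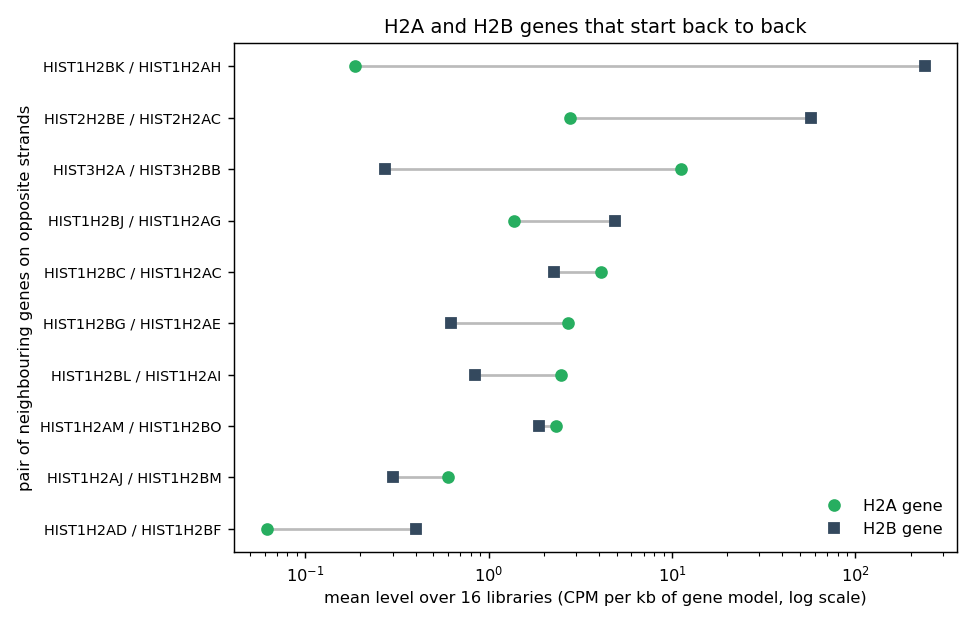
Mean level over 16 libraries (CPM per kb of gene model, log scale) of the H2A gene (circle) and the H2B gene (square) in the 10 H2A and H2B pairs with counts for both. The widest gaps are those of HIST1H2BK with HIST1H2AH and of HIST3H2A with HIST3H2BB.

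The promoters of the 3 leading genes and of HIST2H2AC are given to show both sides of such a pair. They are the 120 bases before the start, from RefSeq (GRCh38.p14), on the gene's own strand. HIST2H2BE lies at chr1:149886683-149886802 (minus strand), HIST2H2AC at chr1:149886798-149886917 (plus), HIST1H2BK at chr6:27146856-27146975 (minus) and HIST1H1C at chr6:26056471-26056590 (minus). Capitals mark the octamer ATTTGCAT, bound by OCT1, the CCAAT box, the TATA box as TATAAA and the H1 box AAACACA, on either strand.

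HIST2H2BE: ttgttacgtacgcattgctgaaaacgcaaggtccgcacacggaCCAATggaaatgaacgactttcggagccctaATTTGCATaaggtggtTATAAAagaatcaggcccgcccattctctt
HIST2H2AC: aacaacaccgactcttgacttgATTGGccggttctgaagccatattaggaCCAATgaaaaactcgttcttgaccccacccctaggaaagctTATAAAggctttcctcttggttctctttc
HIST1H2BK: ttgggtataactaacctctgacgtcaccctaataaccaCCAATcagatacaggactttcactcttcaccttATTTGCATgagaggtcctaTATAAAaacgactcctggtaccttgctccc
HIST1H1C: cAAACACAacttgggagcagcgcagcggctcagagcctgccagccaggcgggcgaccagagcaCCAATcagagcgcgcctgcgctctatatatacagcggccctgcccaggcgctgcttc

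Promoters of 65 of the 73 genes were in the RefSeq table, and the 250 bases before each start were searched. ATTTGCAT was present in 14 of 18 H2B and 11 of 16 H2A promoters, in none of the 31 of types H1, H3 and H4, and in 1.66% of all 27305 promoters. AAACACA was present in 6 of 6 H1 promoters, in none of the other 59, and in 4.95% of all. CCAAT occurred in 55 of the 65 (33.0% of all promoters), with 3 of 13 in H4, and TATAAA in 44 (11.1% of all). The windows of neighbours that start back to back overlap in part, so an octamer can be counted for both. A match says only that the letters are there.

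The first question was whether the histone genes changed with the shRNA. No histone gene was called: 0 of the 36 tested passed in edgeR's quasi-likelihood test, with an adjusted p below 0.05 over all 15201 genes tested, 0 had an unadjusted p below 0.05, and DESeq2 called 0. Over all genes, 0.0197% were called in this comparison and 1.43% had an unadjusted p below 0.05. The fitted log2 fold change was above 0 for 26 of the 36, with a median of 0.09 beside 0.01 over all genes. With the shared title codes as a block the count was also 0.

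In the shRNA libraries the leading genes differed little between groups. HIST2H2BE was at 143, 117, 161 and 144 CPM under the NNT shRNA and at 139.8, 117 and 131 CPM in the controls. HIST1H2BK was at 107, 89.2, 91.6 and 100.5 CPM against 96.3, 116 and 88.7. HIST1H1C was at 109, 84.5, 82.6 and 89.0 CPM against 103, 97.1 and 87.4. The groups overlapped for all 3 genes, and their log2 fold changes were 0.12 ± 0.18, -0.05 ± 0.19 and -0.07 ± 0.14 (SE). The summed level of the 73 genes was 403 ± 28.6 CPM (SD, n = 4) and 393 ± 17.0 (SD, n = 3).

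The smallest p among the 36 in this comparison belonged to HIST1H2BO, an H2B gene, at 1.11, 0.890, 1.03 and 0.748 CPM against 0.689, 0.700 and 0.380. All 4 knockdown libraries lay above the controls, and the log2 fold change of 0.64 ± 0.31 did not pass (edgeR adjusted p = 1.00, unadjusted p = 0.0537). HIST2H2BC, an H2B pseudogene, had 0.42 ± 0.24, and the H2A gene HIST1H2AE had 0.39 ± 0.23.

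**Figure D3:**
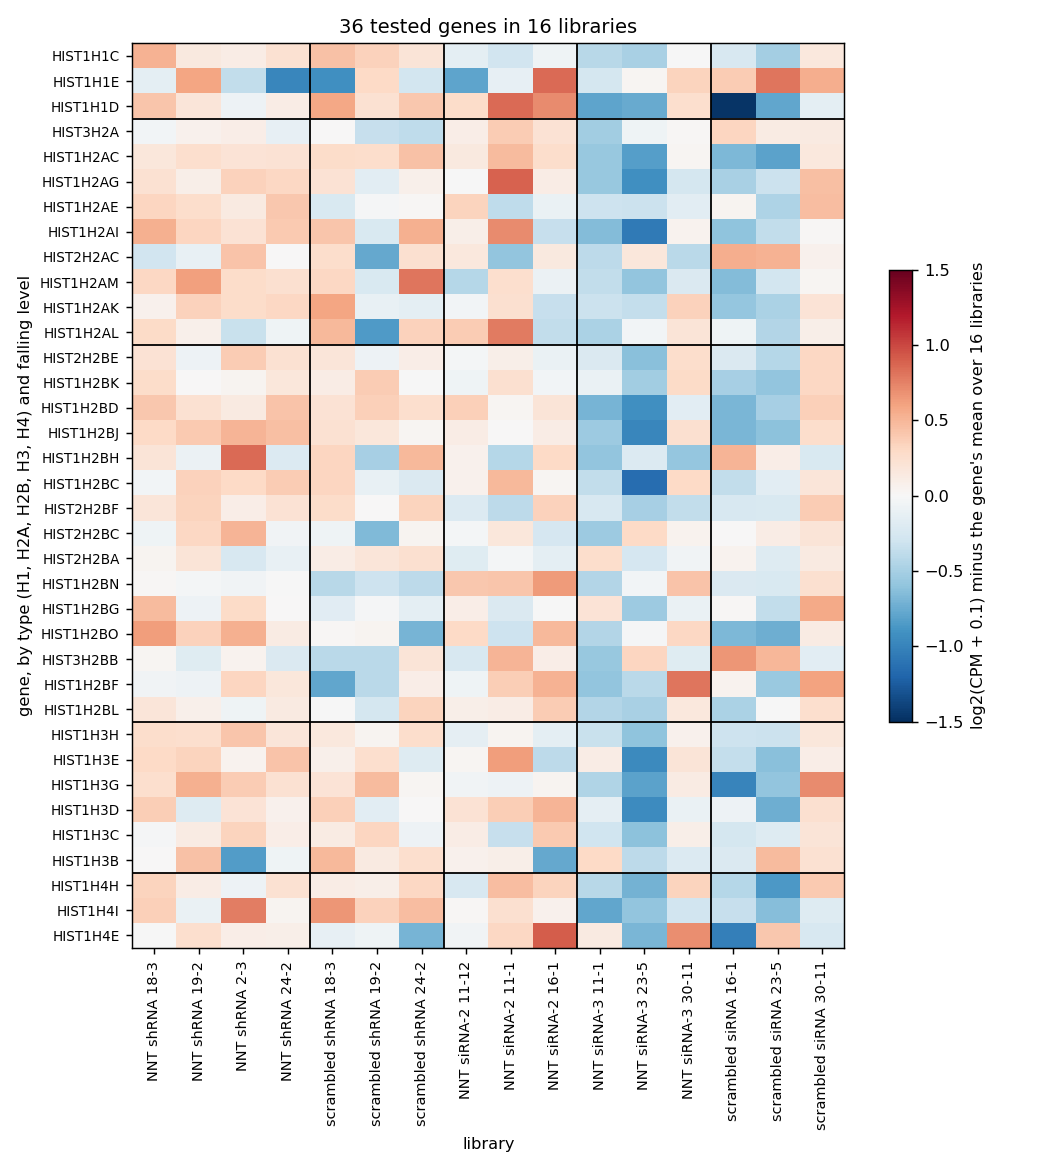
Level of the 36 tested genes in the 16 libraries, as log2(CPM + 0.1) minus the gene's mean over all libraries (colour), with genes by type and falling level. Columns of siRNA-3 11-1 and 23-5 and of scrambled 16-1 and 23-5 are mostly blue, and those of the 2 libraries with code 30-11 are not.

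Before the siRNA comparisons, the spread inside the siRNA groups has to be described. For the summed level the SD was 79.8 CPM in siRNA-3 and 88.2 CPM in scrambled, larger than the differences between the group means. In siRNA-2 the SD was 17.0 CPM, smaller than the differences of its mean from the others. The summed level was 293, 239.8 and 397 CPM in the siRNA-3 libraries 11-1, 23-5 and 30-11. It was 289, 257 and 423 CPM in the scrambled libraries 16-1, 23-5 and 30-11. The siRNA-2 libraries 11-12, 11-1 and 16-1 were at 342, 373 and 347 CPM, between these extremes. Codes 23-5 and 30-11 are the 2 that siRNA-3 and the scrambled siRNA share, and in both groups the first was the lowest library and the second the highest.

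The log2 ratio of the summed level of siRNA-3 to scrambled was -0.10 within code 23-5 and -0.09 within 30-11. Within code 16-1, shared by siRNA-2 and scrambled, the ratio was 0.26 (347 against 289 CPM), and within 11-1, shared by both siRNAs, siRNA-2 was above siRNA-3 by 0.35. The libraries of code 30-11 both lay above both of code 23-5 for 27 of the 36 tested genes, a direction looked at after the values were seen. The same held for 23.6% of all genes tested, against 75.0% of the histone genes. The median log2 ratio of 30-11 to 23-5 was 0.62 over the 36 and 0.00 over all genes.

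All 7 genes of the polyadenylated list showed this order, with log2 ratios from 0.57 (HIST1H1C) to 1.06 (HIST1H2BJ). So did 20 of the other 29, among them HIST1H4H (1.20), HIST1H3G (1.24) and HIST1H3H (0.59). HIST3H2A had a ratio of 0.05, HIST1H2BH one of -0.37 and HIST3H2BB one of -0.67. HIST1H2BK was at 62.0 and 59.1 CPM in the 23-5 libraries and at 109 and 111 CPM in those of 30-11. For the 12 genes listed as replication-independent histones, which encode variants, the summed level was 3836 (siRNA-3) and 3481 CPM (scrambled) for 23-5 and 3674 and 3357 CPM for 30-11. Only 9 of the 12 passed the filter on low counts. H3F3A was at 0.0874 to 0.434 CPM, beside H3F3B at 421 to 644 CPM, and why it was so low was not tested. The share of reads in no gene was 14.3% (siRNA-3) and 15.2% (scrambled) for 23-5 and 12.5 and 11.3% for 30-11, and its part in the histone levels was not tested.

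**Figure D4:**
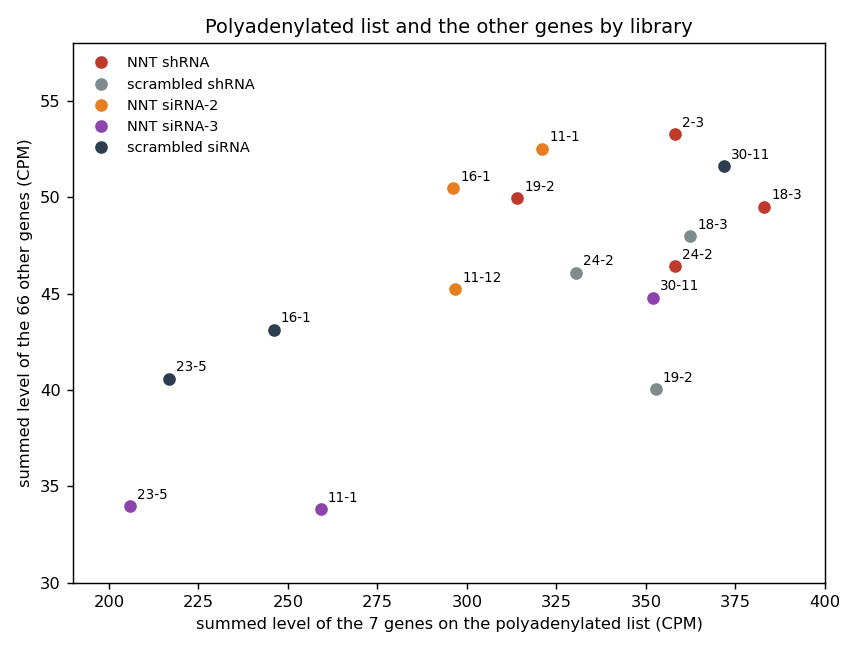
Summed level of the 7 genes on the polyadenylated list (horizontal, CPM) against that of the other 66 genes (vertical, CPM) in each library, coloured by group and marked with the title code; neither axis starts at 0. In the siRNA libraries both sums rise from code 23-5 to code 30-11, and siRNA-3 lies below scrambled within each code.

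Across the 9 siRNA libraries the sum of the polyadenylated list and the sum of the other 66 genes had a Pearson r of 0.75 (Spearman rho 0.75), and 0.63 without the 2 libraries farthest from the median on the first. Across the 7 shRNA libraries r was 0.05 (rho 0.11), and 0.41 without the 2 farthest. Among pairs of genes on the polyadenylated list the median r was 0.85 over the siRNA libraries, from 0.61 to 0.93, and -0.19 over the shRNA libraries, from -0.77 to 0.80. These are descriptions of few libraries that share scaling and preparation, and in part a code.

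The second question was the effect of each siRNA against the scrambled siRNA. For siRNA-2, 0 of 36 histone genes passed in edgeR, where 1.97% of all genes were called. DESeq2 called 1 (HIST1H2AC), among 894 of all 15201 genes. An unadjusted p below 0.05 was found for 3 of the 36 (8.33%) and for 18.6% of all genes. For siRNA-3, 0 of 36 passed in edgeR, where 2.12% of all genes were called, and DESeq2 called 0. Here 1 of the 36 (2.78%) had an unadjusted p below 0.05, against 17.8% of all genes. The 2 comparisons share the scrambled libraries. The log2 fold change was above 0 for 26 genes with siRNA-2 (median 0.26) and for 11 with siRNA-3 (median -0.14), and the medians over all genes were 0.01 and 0.00.

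HIST1H2AC, an H2A gene of the polyadenylated list, was at 7.24, 9.11 and 7.84 CPM under siRNA-2 and at 4.04, 3.71 and 7.32 CPM in the controls 16-1, 23-5 and 30-11. The groups overlapped through control 30-11, and the log2 fold change was 0.70 ± 0.23 (adjusted p = 0.103). Without control 30-11 it was 1.05 and passed (adjusted p = 0.0216). Its partner HIST1H2BC was at 1.92, 2.60 and 1.87 CPM against 1.39, 1.63 and 2.09.

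HIST1H1D, a linker histone gene, had the smallest p for siRNA-2, on very few counts: 6, 9 and 12 in the siRNA-2 libraries against 0, 2 and 3 in the controls. The log2 fold change of 2.23 ± 0.65 did not pass (adjusted p = 0.0778). The H2B gene HIST1H2BN was at 1.53, 1.54 and 1.81 CPM, above the controls at 0.956, 0.952 and 1.34 CPM, with 0.61 ± 0.25 (adjusted p = 0.188).

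For siRNA-3 the smallest p was that of HIST3H2A, at 6.84, 9.41 and 10.0 CPM against 12.4, 10.7 and 10.8. All 3 siRNA-3 libraries lay below all controls, and the log2 fold change of -0.37 ± 0.15 did not pass (adjusted p = 0.202). HIST1H2BH (H2B) had -0.63 ± 0.31 and HIST2H2AC (H2A) -0.64 ± 0.32, both with overlapping groups. Leaving out both libraries of code 30-11, an alternative added after the data were seen, gave 5 called genes for siRNA-2, all higher (HIST1H1D, HIST1H2AC, HIST1H2BD, HIST1H2BJ and HIST1H2BK), in a fit that called 260 of 15376 genes, and 0 for siRNA-3.

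The siRNAs differed from each other in 3 histone genes. HIST1H2AG, HIST1H2BD and HIST1H2AC were higher with siRNA-2, by 1.94-, 1.70- and 1.64-fold. They were 3 of 36 tested, or 8.33%, while 14.4% of all genes were called in either direction and 7.36% were called as higher. The share among the histone genes was thus near the background. The fitted difference was above 0 for 33 of the 36, with a median of 0.35 beside 0.01 over all genes. An unadjusted p below 0.05 was found for 7 of the 36 (19.4%) and for 29.7% of all genes. DESeq2 called 4 (the same 3 and HIST3H2A), among 2720 of all 15201 genes.

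HIST1H2AG, an H2A gene off the polyadenylated list, was at 2.93, 5.54 and 3.21 CPM with siRNA-2 (11-12, 11-1 and 16-1) and at 1.96, 1.51 and 2.45 CPM with siRNA-3. The groups did not overlap, one siRNA-2 library stood far above the others, and the log2 difference was 0.96 ± 0.27 (adjusted p = 0.0228). In the scrambled libraries the gene was at 2.09, 2.33 and 4.08 CPM, across both.

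HIST1H2BD, an H2B gene of the list, was at 8.45, 6.69 and 7.49 CPM with siRNA-2 and at 4.02, 3.40 and 5.87 CPM with siRNA-3, a log2 difference of 0.76 ± 0.23 (adjusted p = 0.0317). HIST1H2AC was at 4.37, 3.63 and 6.66 CPM with siRNA-3, below the siRNA-2 values given above, a difference of 0.71 ± 0.22 (adjusted p = 0.0388). The siRNA groups did not overlap for either gene. The controls at 4.04, 4.61 and 8.42 CPM for HIST1H2BD spanned values of both groups.

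These calls rest on few libraries. Over all genes, the main fit called 2191 of 15201 between the siRNAs. Leaving out siRNA-3 11-1 or siRNA-3 23-5 left 0 called histone genes. Leaving out siRNA-2 11-1 left 1, in a fit that called 1091 of 15357 genes, so calls fell over all genes as well. Leaving out siRNA-2 16-1 also left 1, where 1811 of 15370 genes were called. Leaving out siRNA-3 30-11 gave 9, in a fit that called 2061 of 15378 genes. A fit to the 6 libraries of the siRNAs alone called 0 (adjusted p from 0.0742 to 0.0971 for the 3 genes). For the fits that left 0 histone genes, the count over all genes is not given here.

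**Figure D5:**
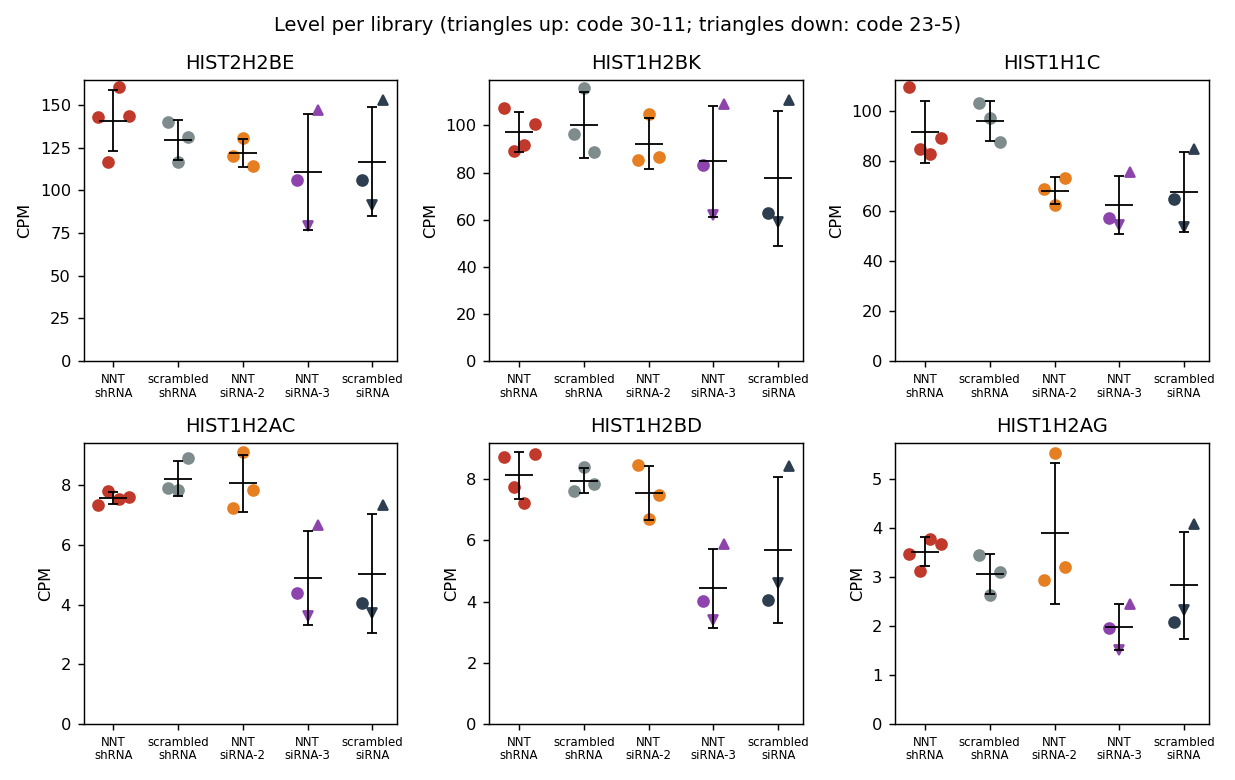
Level in each library (CPM, axis from 0) of the 3 highest genes (top) and of the 3 genes called between siRNA-2 and siRNA-3 (bottom), with the mean and SD of each group as black bars. Upward triangles mark code 30-11 and downward triangles code 23-5; the upward triangles are the highest point of siRNA-3 and of scrambled siRNA in every panel.

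By type, the summed H2A level did not overlap between the siRNAs, at 27.4, 34.2 and 27.9 CPM with siRNA-2 against 17.6, 19.0 and 24.9 with siRNA-3. The H2B sums overlapped, at 241 ± 17.0 and 216 ± 61.9 CPM (SD, n = 3), as did H1 at 69.1 ± 5.59 and 63.0 ± 11.7, H3 at 9.03 ± 0.794 and 7.27 ± 2.03, and H4 at 4.72 ± 1.05 and 3.34 ± 1.31. The 66 genes off the polyadenylated list came to 45.2 to 52.5 CPM with siRNA-2 and to 33.8 to 44.8 CPM with siRNA-3. Without HIST3H2A these sums were 34.7 to 39.6 and 24.6 to 34.8 CPM, and the groups overlapped through siRNA-3 30-11. The 3 highest genes had log2 differences of 0.14 ± 0.19 for HIST2H2BE, 0.12 ± 0.20 for HIST1H2BK and 0.12 ± 0.15 for HIST1H1C.

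The controls were also set against each other, to show how far groups without a knockdown stood apart. Between scrambled siRNA and scrambled shRNA 0 of the 36 genes passed in edgeR, where 1.74% of all genes were called. DESeq2 called 2 of the 36 (HIST1H1C and HIST1H2AC), among 646 of all 15201 genes. An unadjusted p below 0.05 was found for 7 (19.4%) and for 16.8% of all genes. HIST1H1C was at 64.6, 53.4 and 84.8 CPM in the siRNA controls, below all shRNA controls, with a log2 difference of -0.51 ± 0.15 (adjusted p = 0.101). HIST1H4I, an H4 gene, was at 0.434, 0.338 and 0.498 CPM against 0.979, 0.764 and 0.836, a difference of -1.06 ± 0.32 (adjusted p = 0.101). HIST1H2AC differed by -0.73 ± 0.23 (adjusted p = 0.109). Without scrambled siRNA 30-11 the count was 4 (HIST1H1C, HIST1H2AC, HIST1H2BD and HIST1H2BK, all lower), in a fit that called 456 of 15388 genes, and delivery cannot be told apart from anything else that separated the 2 sets of cells.

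Of the 3 leading genes, HIST1H1C had the largest fitted difference between the controls. Its level was 82.6 to 109 CPM in the 7 shRNA libraries and 53.4 to 84.8 CPM in the 9 siRNA libraries, and siRNA-2 at 68.7, 62.5 and 73.004 CPM differed from its control by 0.01 ± 0.15 on the log2 scale. Of the H3 genes, HIST1H3H was highest, at 2.15 to 4.46 CPM, followed by HIST1H3E at 0.738 to 2.42 CPM. HIST1H4H led the H4 genes at 1.26 to 3.30 CPM and followed the title codes as HIST1H2BK did, at 1.41 and 1.26 CPM for 23-5 and 3.01 and 3.14 CPM for 30-11. HIST1H1E, a linker histone gene, was second among H1 genes at 0.125 to 0.699 CPM.

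Of 20 genes on a list of histone message factors and regulators, 19 were tested. None passed with the shRNA or siRNA-2, 1 passed with siRNA-3, and 4 passed between the siRNAs, where 14.4% of all genes were called. SLBP, which binds the stem-loop, was at 172 and 167 CPM with siRNA-2 and its control (log2 fold change 0.04 ± 0.09), and NPAT, which activates histone transcription, at 65.8 and 67.7 CPM (-0.04 ± 0.11). With siRNA-3, CCNE1, the cyclin that drives entry into S phase, rose by 0.93 ± 0.15 (167 against 87.7 CPM, adjusted p = 0.00321). Between the siRNAs CCNE1 was lower with siRNA-2 by a log2 difference of -0.68 ± 0.15, and LSM11, a subunit of the U7 particle, by -0.41 ± 0.11. MIER1 was lower by -0.42 ± 0.12, and no part in histone messages is claimed for it here. UPF1, needed for decay of histone messages, was higher with siRNA-2 by 0.34 ± 0.08.

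Of the replication-independent histone genes, those called between the siRNAs had the opposite sign to the called clustered genes. Of 9 tested, 4 were called lower with siRNA-2 than siRNA-3 and none higher, where 14.4% of all genes were called. The 4 were H2AFV (-0.44 ± 0.09), H2AFY2 (-0.51 ± 0.11), H1F0 (-0.44 ± 0.11) and H3F3B (-0.38 ± 0.10). H1F0, a linker histone of resting cells, rose with siRNA-3 against its control by 0.46 ± 0.11 (adjusted p = 0.0416). H2AFV was higher in the siRNA than in the shRNA controls by 0.52 ± 0.09 (adjusted p = 0.00703).

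Genes of S phase were set beside the histone genes. Of 35 tested S phase genes, 3 were called between the siRNAs, where 14.4% of all genes were called. All 3 were lower with siRNA-2 (GINS3 by -0.53 ± 0.13, RFC3 by -0.37 ± 0.09 and ORC1 by -0.38 ± 0.10). No S phase gene was called in any other comparison. Between the siRNAs the median over the 35 was -0.11, beside 0.35 for the clustered histone genes and 0.01 over all genes. Their summed level was 4510 to 4687 CPM with siRNA-2 and 4850 to 4958 CPM with siRNA-3. Across the 9 siRNA libraries it had an r of 0.14 with the summed histone level (rho 0.32), and of 0.01 without the 2 libraries farthest from its median. With the 66 genes off the polyadenylated list r was -0.34 (rho -0.13), and -0.14 without those 2. Across the 7 shRNA libraries r with the summed histone level was 0.43 (rho 0.57), and 0.09 without the 2 farthest. Of 20 genes of G2 and M phase none was called in any of the 5 comparisons. Of 15 histone chaperones, ASF1B and RBBP4 were lower with siRNA-2 than siRNA-3, by -0.29 ± 0.09 and -0.38 ± 0.12. DAXX was lower in the siRNA than in the shRNA controls, by -0.46 ± 0.11, where 1.74% of all genes were called. In such bulk libraries a change in the share of cells in S phase and a change in message per cell cannot be told apart.

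RNAs without a poly(A) tail, other than histone messages, were also summed. Of 22 listed, 13 were in the files and 1 passed the filter. Their summed level was 0.835 to 2.48 CPM, at 1.25 to 2.48 CPM with siRNA-2 and 0.835 to 1.28 CPM with siRNA-3. The sum was thus higher with siRNA-2 on average, as the histone genes were, and its part in the difference between the siRNAs was not tested.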

How the data were processed

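The authors deposited raw counts per gene for each of 4 lanes of 16 libraries (64 files), without normalization. Libraries were poly(A)-selected and strand-marking, per the labels' protocols. Per the submitters' processing notes, the tools listed are STAR 2.4.2a, HTSeq 0.6.1p1 and DESeq2 1.14.1 and the build is hg19. Which annotation and strand setting served for counting is not stated, which leaves genes that overlap, or lie antisense, uncertain. Lanes were summed. The chi-square per degree of freedom between lanes was 0.976 to 1.05, against 8.11 to 36.7 between libraries of 1 group. Reads in no gene (11.3 to 16.5%), ambiguous reads and reads with several alignments stayed out.

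One edgeR 4.0.16 fit (R 4.3.3) held all libraries with a term per group, TMM scaling, the filter with minimum count 10, quasi-likelihood tests and Benjamini-Hochberg adjustment over 15201 genes; residual degrees of freedom were 11. Each SE was derived from the log2 fold change and the F value of its test. The fit was tested on simulated counts. CPM were computed on TMM-scaled totals. P-values measure the spread between libraries, which may be technical. Alternatives were other scaling, filters, dispersion, samples, lanes, the title code as a block, DESeq2 1.42.0 and each library left out.

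The members and lists were chosen with earlier results of these data known. Named genes were those called, the 3 smallest p per comparison, the 2 highest of each type, NNT, and of the other lists those called or of smallest p. Deviations of shRNA libraries with the same code correlated by 0.133 to 0.213 over genes. A pair with different codes, NNT shRNA 2-3 and scrambled shRNA 24-2, reached 0.156, so whether these codes pair libraries is uncertain. The fit reported has no block, and the fit with the code as a block also called 0 histone genes for the shRNA. The siRNA codes gave -0.02 for 11-1 and 0.01 for 16-1, but 0.36 for 23-5 and 0.37 for 30-11, and were not taken as pairs. The spread between codes 23-5 and 30-11 therefore stayed in the siRNA tests. Gene models and stem-loops came from GENCODE 29, promoters from RefSeq, both on GRCh38, while counts are on hg19.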

Additional observations from a re-analysis of the deposited data

Results flagged for a closer look

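Each of 3 genes differed in its response to the 2 siRNAs by a test of the difference itself. Because both effects were measured against the same scrambled libraries, the difference is that between the siRNA groups. It was 0.96 on the log2 scale for HIST1H2AG, 0.76 for HIST1H2BD and 0.71 for HIST1H2AC. For these genes 3 of 3 siRNA-2 libraries lay above all 3 of siRNA-3. The test is the one that called the 3 genes above, so neither it nor the order of the libraries adds support to those calls. The knockdown of NNT also differed, with NNT 2.02 ± 0.34 higher under siRNA-2 on the log2 scale, and its part in these differences was not tested. By library, siRNA-2 11-1 had NNT at 49.9 CPM, near siRNA-3 30-11 at 47.8 CPM. That siRNA-2 library had the highest HIST1H2AG and HIST1H2AC of the siRNA libraries, at 5.54 and 9.11 CPM. Its HIST1H2BD, at 6.69 CPM, was the lowest of the siRNA-2 group.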

How the results depend on the processing

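With the title code as a replicate block, 0 histone genes were called for the shRNA and 0 for siRNA-3. The count was 2 for siRNA-2 (HIST1H1D and HIST1H2AC) and 7 between the siRNAs, where 490 and 2794 of 15201 genes were called. The siRNA codes did not pair the libraries throughout, and no block was possible between the controls. DESeq2 called 1 for siRNA-2, 4 between the siRNAs and 2 between the controls. Over all 15201 genes it called 894, 2720 and 646 in these comparisons. A fit to only the groups compared called 0 between the siRNAs. Without both 30-11 libraries, chosen after seeing the data, the counts were 5 for siRNA-2, 9 between the siRNAs and 7 between the controls. Of all 15376 genes, that fit called 260, 2030 and 466 in the same comparisons. Leaving out 1 library gave 0 to 1 for siRNA-2, 0 to 9 between the siRNAs and 0 to 4 between the controls. The other comparisons gave 0 throughout. Between the siRNAs, calls over all genes moved too, with 1091 of 15357 without siRNA-2 11-1 and 2101 of 15380 without siRNA-2 11-12. The cause of these changes in count was not tested. Without the polyadenylated list the log2 ratio of the summed level was 0.16 in place of 0.04 for the shRNA, and 0.013 in place of -0.28 between the controls. Leaving out single libraries moved the summed level from -0.01 to 0.37 for siRNA-2 and from -0.28 to 0.18 for siRNA-3. Of the 268 alternative values of named genes, 237 stayed on their side of the threshold, 16 were no longer called, 15 became called and none changed direction. Most members held few counts, so small changes in them were not detectable at this depth.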
